A study of Mus musculus with 2 samples.

Results

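Stretches of the mouse genome where accessible sites listed as unique to CD137+ adipose progenitors followed one another were described as loci. A run was defined as 4 or more consecutive peaks of the CD137 list, each centre at most 50 kb from the next, with no peak of the PDGFRα list between them. The rule gave 284 runs with 1312 member peaks, which is 9.06% of the 14483 CD137 peaks and part of the 22485 peaks of both lists. List membership and position chose the members, so the number, size and PDGFRα-free state of the runs are descriptions and were not tested.

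Both groups were C57BL/6 adipose progenitors, 1 ATAC-seq library each. In ATAC-seq a transposase cuts accessible DNA. Cells were selected by MACS, a magnetic sort with antibodies, as CD137+ or PDGFRα+ (also labelled CD140+) from subcutaneous or visceral fat (SAT or VAT in the labels), exposed to an adipogenic cocktail and treated with dexamethasone at 1 µM, an agonist of the glucocorticoid receptor. Both groups therefore carry the drug and the cocktail, and which depot gave which cells, the number of animals and their age are not stated in the labels. Each deposited list holds only peaks that the submitters named unique, without height or read number. A run thus shows sites that were called in CD137+ cells and not listed for PDGFRα+ cells, and depth is unknown.

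CD137, the product of Tnfrsf9, is used to mark beige progenitors, which can form heat-producing fat cells, and PDGFRα marks stromal progenitors of fat. Regulatory elements that act on a gene of cell identity often lie in groups, spread over its introns and the flanking intergenic DNA, and can act over long distances. Groups of open sites are therefore commonly catalogued by locus, although the nearest gene need not be the gene they act on.

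Few run peaks held the annotated start of a gene. In the RefSeq promoter table (GRCm38.p6, the same build as mm10), 33 of 17491 protein-coding genes had a start inside a run peak (0.189%), at 38 listed starts in 32 of the 284 runs. The promoters of 8 of them are shown as examples and not as a full set. Esrrb, Ptpn5, Socs3, Btg2 and Gadd45a, named further on, also have a start in a run peak and are not shown. Each runs from 250 bases before to 50 bases after the start, 5′ to 3′ on the gene's strand. Capitals mark matches on either strand to 7 motifs: the glucocorticoid receptor hexamer AGAACA, the TEAD motif GGAATG, the AP-1 motif TGANTCA, the EBF core TCCCNNG, the NFI core TTGGCA, the CCAAT box motif and the GC box GGGCGG. Overlapping or touching matches form one block of capitals.
Pparg, chr6:115421816-115422115, plus strand: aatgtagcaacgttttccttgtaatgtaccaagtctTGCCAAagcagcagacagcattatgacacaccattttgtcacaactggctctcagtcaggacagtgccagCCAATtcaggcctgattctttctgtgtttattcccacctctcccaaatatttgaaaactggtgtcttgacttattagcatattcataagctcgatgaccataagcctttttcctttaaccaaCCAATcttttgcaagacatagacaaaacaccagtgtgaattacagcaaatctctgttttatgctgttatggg
Adrb1, chr19:56721867-56722166, plus strand: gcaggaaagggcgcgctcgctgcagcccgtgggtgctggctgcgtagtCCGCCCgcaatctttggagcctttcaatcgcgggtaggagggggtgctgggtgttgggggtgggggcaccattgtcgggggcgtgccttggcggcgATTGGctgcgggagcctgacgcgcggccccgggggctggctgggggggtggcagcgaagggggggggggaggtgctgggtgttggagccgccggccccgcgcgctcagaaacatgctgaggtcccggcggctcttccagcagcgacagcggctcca
Nr4a1, chr15:101266596-101266895, plus strand: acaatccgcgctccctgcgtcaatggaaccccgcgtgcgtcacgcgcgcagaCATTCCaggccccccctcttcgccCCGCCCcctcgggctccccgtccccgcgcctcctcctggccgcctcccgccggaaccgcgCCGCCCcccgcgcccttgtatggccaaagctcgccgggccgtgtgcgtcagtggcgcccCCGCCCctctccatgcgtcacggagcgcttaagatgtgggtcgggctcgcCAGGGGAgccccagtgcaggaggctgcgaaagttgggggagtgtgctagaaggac
Fosb, chr7:19309996-19310295, minus strand: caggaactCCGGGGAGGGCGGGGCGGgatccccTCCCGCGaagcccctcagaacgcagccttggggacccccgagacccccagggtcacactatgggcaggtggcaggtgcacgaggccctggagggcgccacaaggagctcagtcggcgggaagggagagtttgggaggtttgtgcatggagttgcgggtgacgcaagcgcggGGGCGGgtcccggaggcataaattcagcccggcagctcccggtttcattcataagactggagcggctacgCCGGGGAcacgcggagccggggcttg
Emp1, chr6:135362681-135362980, plus strand: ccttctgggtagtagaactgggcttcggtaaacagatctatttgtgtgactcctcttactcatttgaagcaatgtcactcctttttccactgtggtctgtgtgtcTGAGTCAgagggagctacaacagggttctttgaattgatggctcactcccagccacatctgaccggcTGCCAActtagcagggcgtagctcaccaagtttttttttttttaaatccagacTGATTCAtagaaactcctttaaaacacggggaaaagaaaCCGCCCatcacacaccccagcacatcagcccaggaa
Grhl3, chr4:135573583-135573882, minus strand: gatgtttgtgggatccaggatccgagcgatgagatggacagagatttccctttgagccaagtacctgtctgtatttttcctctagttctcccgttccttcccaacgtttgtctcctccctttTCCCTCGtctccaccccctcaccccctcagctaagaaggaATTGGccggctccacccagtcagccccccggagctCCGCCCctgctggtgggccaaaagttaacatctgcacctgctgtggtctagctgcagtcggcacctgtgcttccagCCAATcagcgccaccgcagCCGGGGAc
Chl1, chr6:103510626-103510925, plus strand: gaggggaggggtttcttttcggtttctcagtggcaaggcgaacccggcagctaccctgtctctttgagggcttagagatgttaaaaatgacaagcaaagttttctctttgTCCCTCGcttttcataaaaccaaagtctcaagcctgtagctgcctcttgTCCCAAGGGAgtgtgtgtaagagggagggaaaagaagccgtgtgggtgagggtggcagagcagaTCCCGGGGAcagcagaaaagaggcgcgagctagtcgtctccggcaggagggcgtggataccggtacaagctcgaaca
Col6a3, chr1:90843922-90844221, minus strand: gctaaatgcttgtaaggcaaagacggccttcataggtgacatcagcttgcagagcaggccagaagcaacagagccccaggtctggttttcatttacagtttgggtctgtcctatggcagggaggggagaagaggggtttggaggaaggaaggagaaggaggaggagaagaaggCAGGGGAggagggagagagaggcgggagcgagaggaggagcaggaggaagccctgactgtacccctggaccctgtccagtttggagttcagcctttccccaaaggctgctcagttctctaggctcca

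The Pparg sequence is the downstream start that gives the fat-cell isoform PPARγ2, and its peak (115420291 to 115422506 on chromosome 6) was classed as exonic. This promoter held 2 CCAAT matches and 1 NFI match and none of the other 5 motifs. The Emp1 promoter was the only one of the 38 with an AP-1 match, and it had 2, where 6.99% of 21262 promoters in the table had at least 1. Emp1 encodes an epithelial membrane protein. The TEAD motif occurred in 5 of 38 (13.2%) against 13.6% of the table, the glucocorticoid hexamer in 4 (10.5%) against 16.2%, and the NFI core in 5 (13.2%) against 13.1%. CCAAT was found in 15 (39.5%) against 38.2%, the GC box in 22 (57.9%) against 46.2%, and the short EBF core in 31 (81.6%) against 61%. Several genes had more than 1 listed start in the same peak, so the 38 sequences are not independent, and the median GC content was 61.5% in them and 56.3% in the table. None of the promoters printed above had the glucocorticoid hexamer. A match is a string of letters in this window and no measure of binding.

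Most runs were short. Runs of 4 peaks numbered 178, runs of 5 numbered 64, and 28 runs had 6, 7 had 7, 4 had 8, 2 had 10 and 1 had 11. The median run spanned 74.4 kb (interquartile range 57.2 to 101 kb, extremes 23.7 and 230 kb) and held 5.66 kb of peak. In all, the runs spanned 23.2 Mb, of which 7.62% lay in peaks. The median step between neighbouring centres was 19.97 kb (10.5 to 32.8 kb), and 60 of 1028 steps (5.84%) were under 5 kb.

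The limits of the rule fell where many peaks lay. Just outside the size limit were 600 runs of 3 peaks. Neighbouring CD137 peaks 45 to 50 kb apart numbered 273, and pairs 50 to 55 kb apart numbered 277. Of the 568 run ends, 290 (51.1%) were set by a distance over 50 kb alone, 36 (6.34%) by an intervening PDGFRα peak alone, and at 242 (42.6%) both applied. From a run end the next PDGFRα peak was at a median of 165 kb (59.3 to 401 kb). A distance over 50 kb and an intervening PDGFRα peak are the rule's own limits, so the shares of run ends describe how the rule worked.

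The same rule with the lists exchanged gave 58 runs with 258 peaks, 3.22% of the 8002 PDGFRα peaks, and their largest run had 9 peaks, all within Celf4. The CD137 list is the longer one, and the part of list length in the number of runs was not tested. With only the 8002 widest CD137 peaks, 78 CD137 and 69 PDGFRα runs were found. This setting kept PDGFRα peaks of every width, so the lists were not thinned alike. It also took out CD137 peaks that can interrupt a PDGFRα run. At equal length the numbers of runs were thus close to each other, and the PDGFRα list had the longest run, with 9 peaks.

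**Figure D1:**
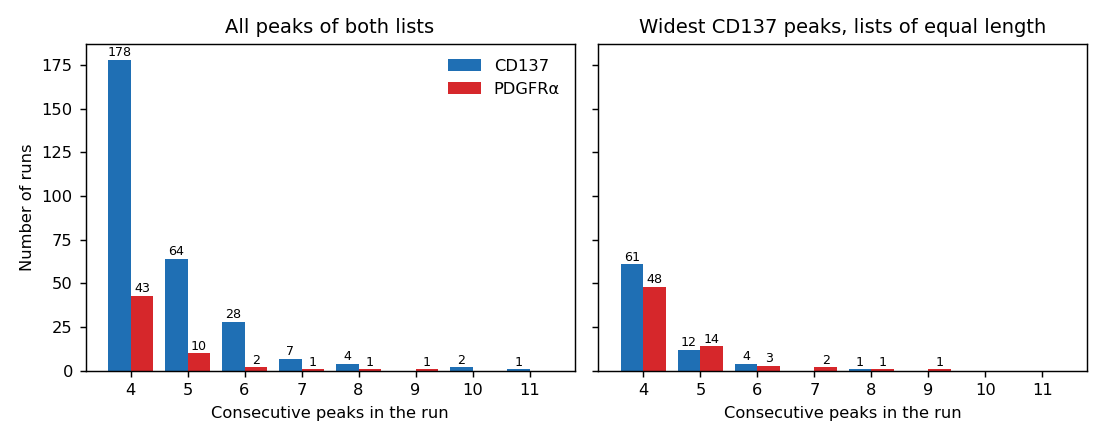
Number of runs (vertical axis) by the number of consecutive peaks they hold (horizontal axis), for CD137 (blue) and PDGFRα (red), with all peaks on the left and with the 8002 widest CD137 peaks on the right; numbers stand above the bars. With all peaks there were 178 CD137 and 43 PDGFRα runs of 4 peaks, and with lists of equal length 61 and 48.

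The run with the most peaks lay in the intergenic stretch between Papss1, a gene of sulfate donor synthesis, and Dkk2, which encodes a secreted modulator of Wnt signalling. Its 11 peaks spanned chromosome 3, 131771555 to 132001751, and every one was classed intergenic. The first lay 129 kb from Papss1 and the last 84.1 kb from Dkk2. The widest of them, at 131866988 to 131869360, was 2372 bp, and the others ranged from 964 to 1411 bp. The next PDGFRα peaks were 242 kb to the left and 427 kb to the right.

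The transcription factor gene Ets1 carried a run of 10 peaks on chromosome 9 (32628912 to 32824702). One peak lay 6.71 kb before the left end of the gene, 5 were in its introns and 4 followed within 66.3 kb of its right end. Ets1 had no PDGFRα peak within 5 kb, the nearest being 37.6 kb left of the run. The other run of 10, also on chromosome 9 (43191587 to 43333056), began in an intron of Pou2f3, a POU factor gene, crossed Oaf and ended in an exon of Trim29, a tripartite motif gene known from epithelia. Here PDGFRα peaks stood close by, 47.2 kb to the left and 7.59 kb to the right. The Pou2f3, Oaf and Trim29 stretch thus had PDGFRα peaks within 50 kb on both sides, and the stretch between Papss1 and Dkk2 had none there.

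Tbx15 and its neighbour Wars2 shared a run of 8 peaks on chromosome 3 (99169582 to 99293359). Tbx15 encodes a T-box factor of mesoderm that marks preadipocytes of some white depots, and Wars2 encodes the mitochondrial tryptophanyl-tRNA synthetase. Each gene held 4 of the centres. One peak of 2513 bp (99239713 to 99242226, up5k) covered the left end of Tbx15 and one of 2553 bp (99245846 to 99248399) lay in its intron. The next PDGFRα peaks were 727 kb and 972 kb away. All 8 peaks remained in the run when the CD137 list was limited to its 8002 widest peaks, and it was then the largest CD137 run.

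The other runs of 8 lay mainly between genes. On chromosome 18 (54931157 to 55088556) 3 peaks were in Zfp608, a zinc finger gene, and 5 reached up to 95.2 kb beyond it. On chromosome 6 (31099531 to 31289343) the peaks lay between Klf14, a Krüppel-like factor gene linked to fat cell gene expression, and Mkln1, which encodes muskelin. That run started 141 kb from Klf14 and ended 110 kb from Mkln1, and 198 kb further right followed a run of 4 over Mkln1 and Podxl, a sialomucin gene. On chromosome 3 (50922155 to 51122772) the run lay left of Noct, the gene of the circadian phosphatase nocturnin, 302 to 102 kb from it.

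Runs of 7 were found at both intronic and remote sites. Tspan5, a tetraspanin gene of 163 kb, held a run of 7 intronic peaks between PDGFRα peaks 10.9 kb to the left and 17.5 kb to the right. Both PDGFRα peaks were centred in Tspan5 as well, and the left one covered the left end of the gene. Anks1b, a scaffold gene of 1100 kb, held 7 intronic peaks. Near Maf, which encodes a leucine zipper factor, 7 intergenic peaks lay 191 to 324 kb from the gene (chromosome 8, 115896569 to 116031627). A run of 5 peaks stood between them and Maf, starting 12.2 kb from the gene, with 90.9 kb and no PDGFRα peak between the 2 runs.

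**Figure D2:**
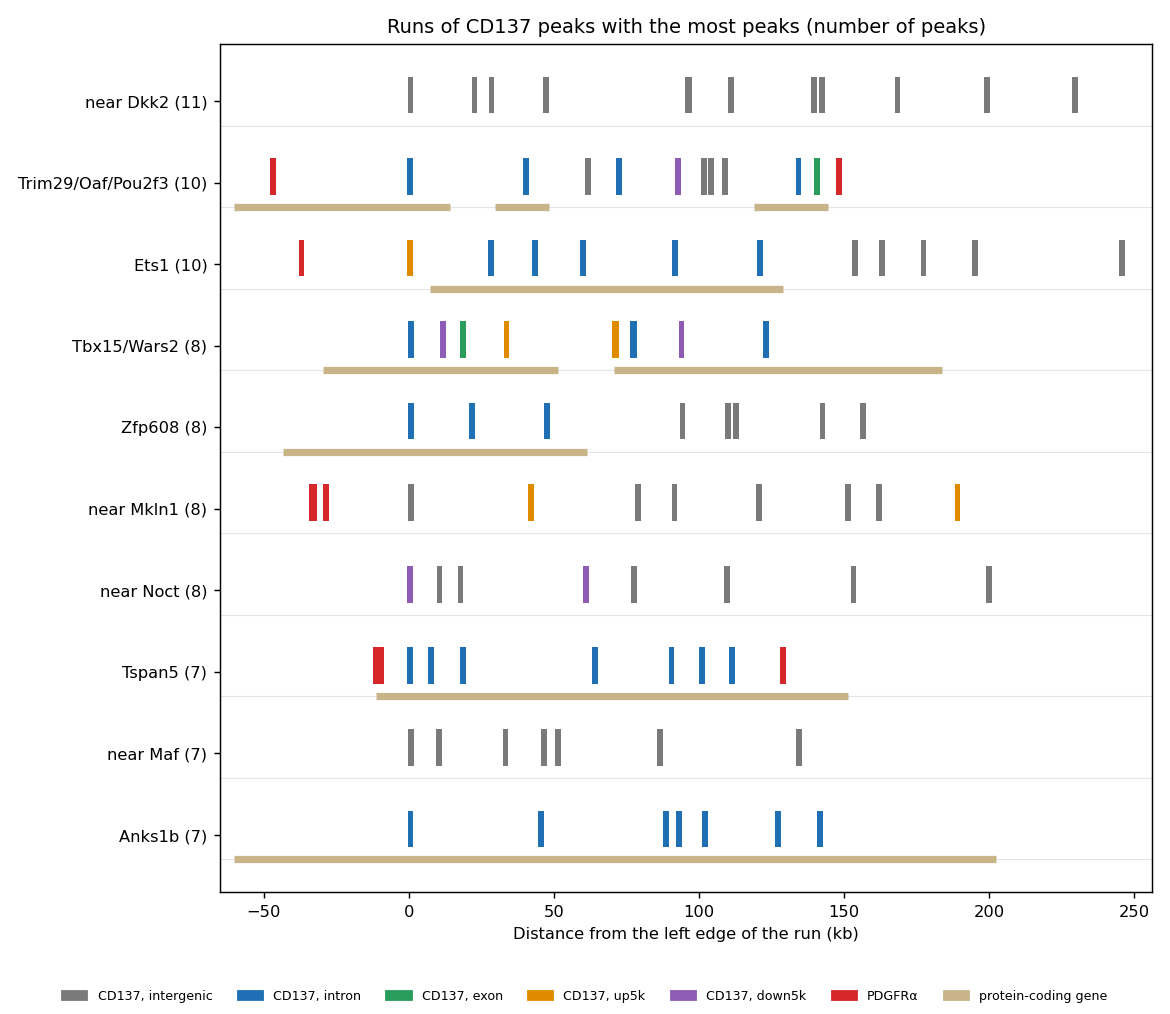
The 10 runs with the most peaks, 1 per row, with the number of peaks in brackets; the horizontal axis is the distance in kb from the run's left edge, and 60 kb on each side are drawn. CD137 peaks are coloured by deposited class, PDGFRα peaks are red, tan bars are protein-coding genes cut at the drawn window, and peaks under 2 kb are drawn 2 kb wide. The rows of the runs near Dkk2, Mkln1, Noct and Maf have no gene in the window. The Tspan5 row and the row of Trim29, Oaf and Pou2f3 have a PDGFRα peak on either side.

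The 6 tightest runs had mean steps of 6.34 to 8.45 kb. The closest was an intergenic run of 5 between Insig2, a brake on cholesterol synthesis, and Ccdc93, on chromosome 1 (121373362 to 121400026), and a run of 7 lay 244 kb to its left with 1 PDGFRα peak between. Next came 4 intronic peaks in Pepd, the prolidase gene (chromosome 7, 34963946 to 34987679, mean step 7.52 kb), and 4 in Pip4k2a, a phosphoinositide kinase gene (chromosome 2, 18927873 to 18952994, 8.004 kb). Nuggc held 4 peaks at a mean step of 8.33 kb. The last were 6 intergenic peaks 111 kb or more from Habp2 on chromosome 19 (8.38 kb) and 4 intergenic peaks 212 kb or more from Atp2b1, a calcium pump gene, on chromosome 10 (8.45 kb).

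Runs that held gene ends or exons were led by Chl1, a cell adhesion gene of the L1 family. Of its 6 peaks on chromosome 6 (103510130 to 103621459), 5 were classed up5k, but only the first carried the Chl1 identifier ENSMUSG00000030077. The others were given to 4 further Ensembl genes, although the centres of these peaks lay within Chl1. The first peak, 2759 bp wide, covered the Chl1 start shown above. A run of 5 on chromosome 8 (84658262 to 84754198) began with a peak of 7857 bp over Ier2, the widest of all CD137 peaks in runs, and ended with 2 peaks in Nfix, a nuclear factor I gene. Ptpn5, a tyrosine phosphatase gene, had 4 peaks of the classes up5k and exon (chromosome 7, 47073119 to 47133249). Esrrb, an orphan nuclear receptor gene, held a run of 5 peaks, 3 of them exonic (chromosome 12, 86420964 to 86519629), which was lost with the 8002 widest CD137 peaks.

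Several of the widest run peaks lay at genes that respond quickly to stimuli, which were picked out after their widths were seen. The peak at Ier2 was followed by one of 6256 bp over the start of Nr4a1, an orphan nuclear receptor gene, at the right end of a run of 4 that also crossed Acvr1b, an activin receptor gene (chromosome 15, 101197611 to 101271881). Socs3, a brake on cytokine signalling, had peaks of 4483 bp beside the gene and 2846 bp over its start in a run of 5. Fosb, an AP-1 subunit gene, had peaks of 4456 bp over its start and 3053 bp beside it in a run of 4. Emp1 had peaks of 4276 bp over its start and 3223 bp beside the gene in a run of 5. Peaks of 4177 bp in the tensin gene Tns1, 4161 bp over Gadd45a, a stress-induced gene, and 4135 bp over Btg2, an antiproliferative gene, came next. The median run peak was 1266 bp wide, and 80 of 1312 (6.10%) were 2 kb or wider, in 65 of the 284 runs.

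The remotest runs lay far from any protein-coding gene. A run of 5 on chromosome 17 (59988438 to 60039535) was 976 kb from Nudt12, the nearest gene. Another 5 peaks on chromosome 12 (97427774 to 97484231) were 719 kb from Galc, the galactosylceramidase gene, and 5 on chromosome 3 (39943361 to 40005991) were 526 kb from Intu. A further 5 on chromosome 16 (77693128 to 77824600) were 477 kb from Cxadr, a cell junction receptor gene. In all, 33 of 284 runs (11.6%, Wilson 95% interval 8.39 to 15.9%) kept over 100 kb from every protein-coding gene. Of the PDGFRα runs, 4 of 58 (6.90%, 2.71 to 16.4%) did so. CD137 peaks in no gene had a median distance to a gene of 59.6 kb in runs and 53.6 kb outside them. The upper quartiles were 147 kb in runs and 184 kb outside them, so remote peaks were not particular to runs. For the runs near Nudt12 and Galc the next PDGFRα peak was also over 500 kb away on both sides, which held for 12 runs in all, the Tbx15 run among them.

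Runs were spread over genes and the DNA between them. A single protein-coding gene held every centre in 79 runs (27.8%, 22.9 to 33.3%), 87 runs (30.6%, 25.6 to 36.2%) had no centre in a gene, and the other 118 lay partly in a gene or over several. The 78 genes that held a whole run were long, with a median of 260 kb, where the median was 87.4 kb for the 3792 genes with any CD137 centre. Of these 78 genes, 32 (41.0%) had no PDGFRα centre anywhere in the gene. No such share was at hand for the 3792 genes with any CD137 centre, so 41.0% cannot be called high or low. The rule itself also requires a stretch free of PDGFRα peaks. Frmd4a (8 CD137 centres), Elmo1 (8), a gene of cell motility, and the matrix protease gene Adamts2 (6) were among the 32 genes. In contrast, Rbms3 had 5 CD137 and 5 PDGFRα centres and still held a run of 5. A run inside a gene therefore did not mean that the gene lacked PDGFRα peaks.

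Among the fat cell regulators, Pparg, whose nuclear receptor drives preadipocytes into fat cells, carried a run of 5 over its introns and right flank (chromosome 6, 115389584 to 115512218). Of these, 3 peaks were in the gene, 1 lay 9.13 kb and 1 lay 21.4 kb beyond it, and Pparg had no PDGFRα peak within 5 kb. Pparg was the only one of 32 adipocyte genes with a run peak, of 9 with any CD137 peak. Ebf1, another adipogenic factor gene, was the nearest gene to a run of 4 that lay 128 kb away. For reference, 262 of 21883 protein-coding genes (1.2%) had a run peak within 5 kb, and these were 5.62% of the 4662 genes with any CD137 peak there. By the looser measure of holding or lying nearest to a run peak, 390 of 21883 genes (1.78%) were counted, 5.89% of the 6624 genes that hold or lie nearest to any CD137 peak. In the adipocyte list 1 gene of 9 is already 11.1%, so single genes set the shares of such lists.

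Of 28 thermogenic and beige genes, 9 had a CD137 peak and 2 a run peak. Ebf2, a transcription factor gene of brown and beige precursors, carried a run of 7 on chromosome 14 (67265503 to 67446167), with 5 intronic peaks and 2 beyond the right end of the gene. All 6 CD137 peaks within 5 kb of Ebf2 were in this run, and no PDGFRα peak was. Its peaks were 888 to 1869 bp wide, and the run was lost both with the 8002 widest CD137 peaks and with a largest step of 25 kb. Kcnk3, a potassium channel gene, had both of its CD137 peaks, each exonic, in a run of 4. The beige marker gene Tmem26 was the nearest gene to a run of 4 that lay 73.9 kb away, and Adrb1, a beta-adrenergic receptor gene outside the lists, had its start in the first peak of a run of 4 on chromosome 19.

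Of 20 white fat regulators, 6 had a CD137 peak and 2 a run peak. They were Tbx15, described above, and Zfp423, a preadipocyte factor gene. Zfp423 held a run of 5 intronic peaks on chromosome 8 (87790247 to 87862255), the widest 2926 bp, and its 2 PDGFRα peaks lay in the same gene outside the run. Nrip1, a nuclear receptor corepressor gene, was the nearest gene to a run of 5 that started 15.2 kb away. Of 32 Hippo and TEAD genes, 13 had a CD137 peak and only Frmd6, an upstream Hippo gene, had run peaks. All of its 4 CD137 peaks formed the run (chromosome 12, 70837291 to 70897554), the widest was 3183 bp, and it had no PDGFRα peak.

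Matrix and TGF-beta genes had 3 members with run peaks among 34, of 15 with a CD137 peak. Bmper, a secreted BMP regulator gene, carried 7 run peaks in 2 runs on chromosome 9, 1 of 5 within its introns and 1 of 4 across its right end, 90.1 kb apart. Ltbp1, which encodes a latent TGF-beta binding protein, held 5 intronic peaks at a mean step of 11.7 kb (chromosome 17, 75080747 to 75129134), and 2 PDGFRα peaks lay elsewhere at the gene. Col6a3, a collagen VI gene, had 2 peaks in a run of 4 that ended at Mlph, 1 of them over the start shown above. Among 52 mesenchymal transcription factor genes 26 had a CD137 peak and 3 had run peaks, namely Ets1 with 5, Nfix with 2 and Zeb1 with 2. Unlike Ets1, Nfix had 2 CD137 and 2 PDGFRα peaks within 5 kb, and Zeb1 had 3 and 3. A PDGFRα peak was centred 1.395 kb to the right of the last peak of the Zeb1 run. Foxp1, Nfia and Maf were in addition the nearest genes to intergenic runs, 128 kb from Foxp1, 63.0 kb from Nfia and 12.2 kb from Maf at the closest.

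Other lists had few or no genes in runs. None of 30 glucocorticoid response genes (11 with a CD137 peak), 29 stromal progenitor genes (11), 37 growth factor and Wnt genes (20), 19 endothelial genes (3) and 24 immune genes (1) had a run peak within 5 kb. This holds for the listed genes only, as genes outside the lists such as Tgfa (3), Ntf3 (3) and Il1rl1 (1) held run peaks. Cxcl12, a chemokine gene of the stromal progenitor list, was the nearest gene to 2 runs of 5, at 167 and 171 kb, and Egfl7, of the endothelial list, was nearest to the last peak of a run of 4 at Notch1, at 22.4 kb. Dkk2, a growth factor and Wnt list member, was the gene nearest to most peaks of the largest run, although none lay within 5 kb. In the mesothelial list 1 of 15 genes had run peaks, Podxl with 2, and in the early embryo list 1 of 22, Esrrb. Of 28 long neuronal and adhesion genes, a list that shows how gene length enters, 26 had a CD137 peak and 5 had run peaks. These were Nav3 with 9 in 2 runs, Anks1b with 7, and Macrod2, Sema5a and Ptprd with 5, 5 and 4. The long-gene list thus had the highest share of its genes in runs of the 14 lists, 17.9%. Among genes with a CD137 peak its share was 19.2%, below those of the white fat (33.3%), early embryo (25%), thermogenic and beige (22.2%) and matrix and TGF-beta (20%) lists, which rest on 1 to 3 genes each.

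**Figure D3:**
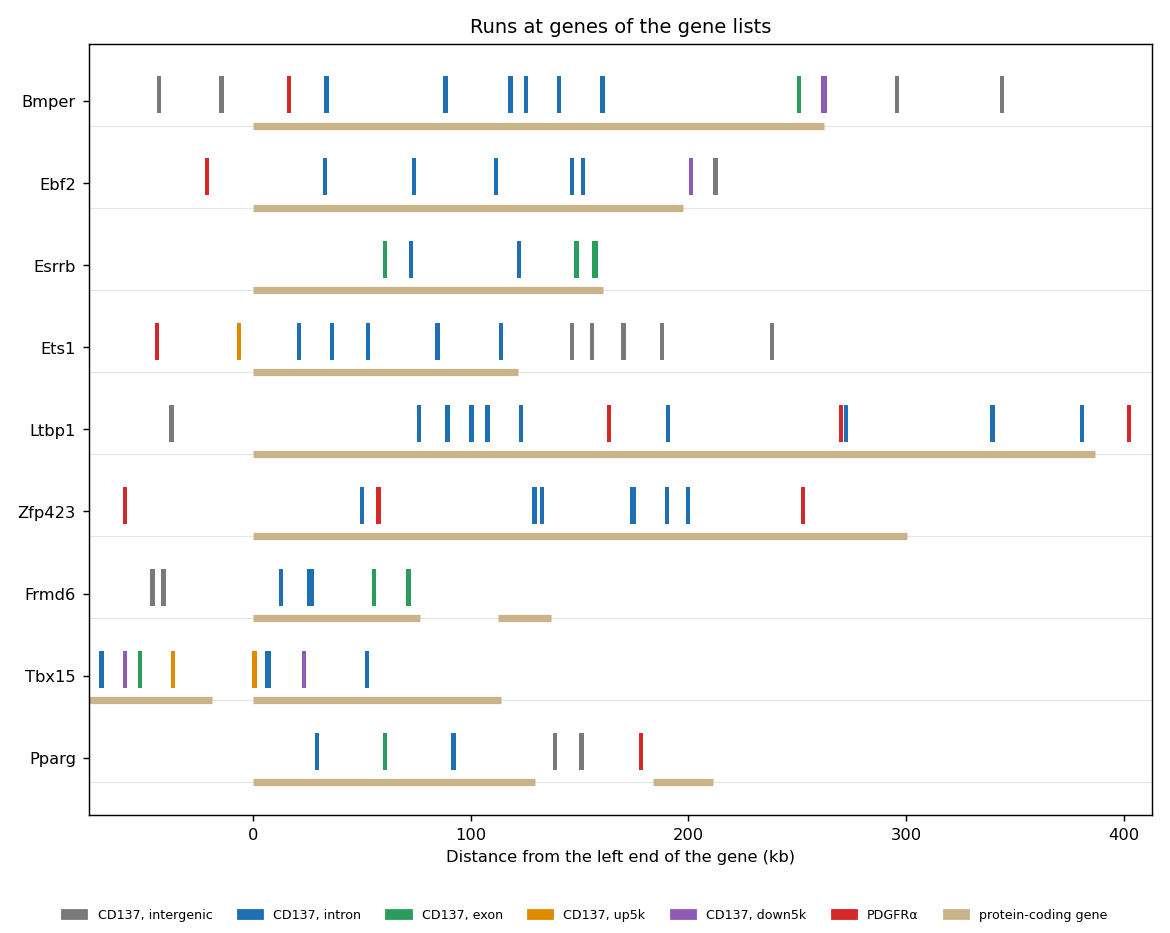
Genes of the fixed lists with 3 or more run peaks, the long-gene list left out, 1 per row; the horizontal axis is the distance in kb from the gene's left end on the chromosome. Colours and bars are as in the map of the largest runs, peaks outside runs are drawn too, and peaks under 2 kb are drawn 2 kb wide. PDGFRα peaks lie inside the bars of Bmper, Ltbp1 and Zfp423 and not inside those of Ebf2, Ets1, Frmd6, Esrrb, Tbx15 and Pparg.

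The genes the study names were not in runs. The nearest run to Tead1, the Hippo pathway's DNA-binding partner, was 307 kb away, a run of 4 in Arntl, a core clock gene, on chromosome 7 (113213913 to 113261279). Tnfrsf9 was 1.94 Mb from the nearest run, at Casz1 and Pex14, Nr3c1, the glucocorticoid receptor gene, was 3.03 Mb from one, and Pdgfra was 23.3 Mb from one. The lists hold only peaks named unique, and the rule for a unique peak is not given. Sites accessible in both cell populations may be missing from both lists, so these distances are no measure of how accessible the genes were.

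Peaks in runs were more often intronic than the other CD137 peaks. Introns held 37.0% of the 1312 run peaks and 31.1% of the 13171 others, a difference of 5.85 percentage points (Newcombe 95% interval 3.15 to 8.61). In the PDGFRα list, too, introns held 42.2% of the 258 run peaks and 33.3% of the 7744 others. A higher intronic share was thus not particular to CD137 runs, and it was not computed under other settings of the rule. Between genes lay 44.1% and 45.4%, with a difference of -1.32 points (-4.12 to 1.51) that is not larger than the counting error and changed sign at a largest step of 25 kb (10.6 points). The up5k share was 6.94% against 8.81%, a difference of -1.87 points (-3.22 to -0.295), but -0.0142 points (-2.84 to 3.69) with the 8002 widest CD137 peaks. An annotated start lay in 2.59% of run peaks and 3.58% of the others (difference -0.985 points, -1.79 to 0.0682). Peaks of a run share a locus, so these intervals, which cover counting error only, are too narrow.

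The deposited classes up5k and down5k appeared to follow the chromosome rather than the strand of the gene. Of CD137 peaks that hold the start of a single plus-strand gene, 76.6% of 248 were classed up5k and 2.42% down5k. For minus-strand genes 17.2% of 250 were up5k and 61.2% down5k, and the PDGFRα list gave 76.4% of 165 up5k on the plus strand and 56.6% of 143 down5k on the minus strand. The run peaks over the starts of Fosb, Socs3, Btg2, Grhl3 and Col6a3, all minus-strand genes, were classed down5k, while that over Gadd45a, also on the minus strand, was classed up5k. The up5k share is therefore not a promoter share.

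**Figure D4:**
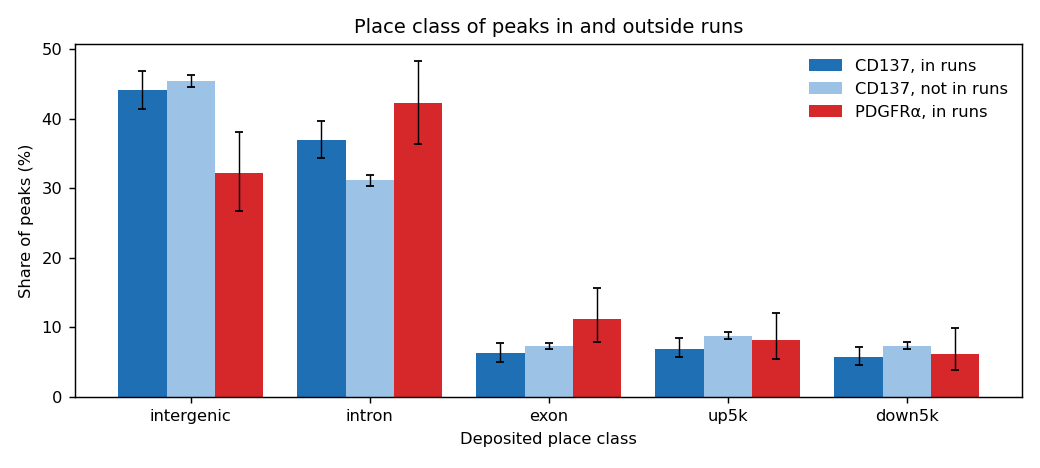
Share of peaks (%, vertical axis) in each deposited place class (horizontal axis) for CD137 peaks in runs, CD137 peaks outside runs and PDGFRα peaks in runs; bars are shares and error bars Wilson 95% intervals. Introns held 37.0% of CD137 run peaks and 31.1% of the others, and intergenic peaks made up 44.1% of CD137 and 32.2% of PDGFRα run peaks.

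Run peaks were slightly wider than the other CD137 peaks, with medians of 1266 bp and 1217 bp. The difference was 49 bp, with an interval of 29.1 to 76.9 bp joined from the order-statistic 95% intervals of both medians. Peaks of a run share a locus, so this interval is too narrow as well. The difference had the same sign in each of the 5 classes, from 36 bp for intergenic to 75 bp for exonic peaks. Peaks at the ends of runs (median 1268 bp) and inside them (1263 bp) were alike within 5 bp. The number of protein-coding genes centred within 250 kb had a median of 3 both around run peaks (interquartile range 1 to 5.25) and around the other CD137 peaks (1 to 6).

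Against PDGFRα runs, CD137 run peaks were more often intergenic and less often exonic. The intergenic shares were 44.1% of 1312 and 32.2% of 258, a difference of 11.96 points (5.46 to 18), and the exonic shares 6.25% and 11.2%, a difference of -4.99 points (-9.58 to -1.39). A protein-coding gene held the centre of 50.6% of CD137 and 59.3% of PDGFRα run peaks (difference -8.69 points, -15.1 to -2.03). These intervals count the peaks of a run as independent and are therefore too narrow. The share of runs inside a single gene was 27.8% and 29.3%, a difference of -1.49 points (-15.1 to 10.03), and that of runs with no centre in a gene 30.6% and 19.0%, a difference of 11.7 points (-1.26 to 21.5), neither beyond the counting error. Run spans were near each other, with medians of 74.4 and 80.3 kb. Outside runs, too, intergenic peaks made up 45.4% of CD137 and 38.9% of PDGFRα peaks, so a higher intergenic share was not particular to runs.

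The share of CD137 peaks that lay in runs differed between chromosomes. It was highest on chromosomes 6 (13.4%, 11.3 to 15.8%), 10 (13.2%, 11.1 to 15.7%) and 19 (12.9%, 9.87 to 16.6%), and lowest on chromosomes 14 (4.28%, 2.96 to 6.15%), X (5.02%, 3.11 to 7.99%) and 18 (5.51%, 3.91 to 7.71%). Chromosome 6 held 24 runs, among them those of Pparg, Chl1, Emp1, Gadd45a and the stretch between Klf14 and Mkln1, and 1 PDGFRα run. Chromosome 10 held 25 runs, and chromosome 14, which carries Ebf2, held 6. The CD137 share of all peaks was 66.2% on chromosome 6, 66.3% on chromosome 10 and 64.5% on chromosome 14. Runs are counted from neighbouring peaks, so these intervals too are narrower than the true error.

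**Figure D5:**
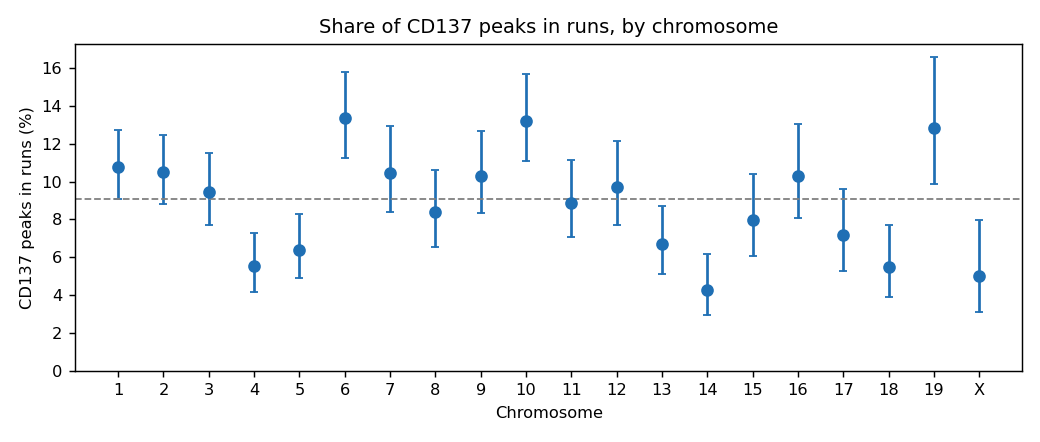
Share of CD137 peaks that lie in runs (%, vertical axis) on each chromosome (horizontal axis); points are shares, error bars are Wilson 95% intervals and the dashed line is the share over all chromosomes, 9.06%. Chromosomes 6, 10 and 19 lie above the line and chromosomes 14, X and 18 below it; chromosome Y, with 2 CD137 peaks and no run, is left out.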

How the data were processed

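Each library has 1 deposited peak list with chromosome, start, end, Ensembl gene and place class, per the file headers. Lists hold no height, score or read number, so depth is unknown. The submitters' processing notes name CASAVA 1.8 and the build mm10, with no role given. The labels' extraction protocol also speaks of embryonic cells, which does not match adipose samples. Aligner, peak caller, threshold, read shift and the rule for a unique peak: not given in the sources used here.

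Both lists were pooled and sorted by chromosome and centre, and runs were found as defined in the report. Peaks were placed against 21883 protein-coding genes of a RefSeq table (GRCm38.p6), and starts came from a RefSeq promoter table. Coordinates are printed as deposited, with no statement of whether starts count from 0 or 1. Shares have Wilson and differences Newcombe 95% intervals, and no p-value was computed with 1 library per group. Whether a library came from 1 or several cultures is not stated.

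The members and the 14 gene lists were chosen with earlier results of these data known. Named loci are the 10 runs with the most peaks, the 6 tightest, the 6 with the most up5k and exon peaks, the 4 farthest from genes, up to 4 genes per list, and Tnfrsf9, Pdgfra, Tead1 and Nr3c1. Other genes were named after their values were seen. The rule left out clone-named genes. Alternatives varied the distance, run size, edges, merging and list length. The run finder was tested on simulated peaks. Scripts ran in Python 3.11.15 (scipy 1.17.1 for intervals, pandas 2.3.3 and numpy 2.4.6 for tables, matplotlib 3.10.9 for figures).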

Additional observations from a re-analysis of the deposited data

How the results depend on the processing

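Runs are set by the limits of the rule, so their numbers followed them. With a largest step of 25 kb there were 78 CD137 runs (2.32% of CD137 peaks) and 11 PDGFRα runs, and with 100 kb there were 709 (24.3%) and 156. A minimum of 3 peaks gave 884 (21.5%) and 270, and a minimum of 6 gave 42 (1.93%) and 5. The wider 50% of each list gave 70 (4.12%) and 11, and the 8002 widest CD137 peaks gave 78 CD137 runs (4.20%). Steps between facing edges gave 9.56% of CD137 peaks in runs. Of the 284 runs, 78 still held a run with the 8002 widest CD137 peaks, 78 with a step of 25 kb and 30 under both settings. Of the loci described, those of Tbx15, Ets1, Socs3, Emp1, Tns1, Nuggc, Dkk2 and Galc held a run under both. So did the tightest run, between Insig2 and Ccdc93, and the farther Maf run. Among those lost at 25 kb only were the runs of Pparg, Zfp423, Frmd6, Tspan5, Anks1b, Zfp608, Klf14, Noct, Chl1, Ier2, Nr4a1, Fosb and Nfia. Those lost with the 8002 widest peaks only included the runs of Pou2f3, Ltbp1 and the Bmper introns. Those lost under both included the runs of Ebf2, Esrrb, Kcnk3, Col6a3, Zeb1, Podxl, Foxp1, Ptpn5, Intu and Cxadr. The runs at the right end of Bmper and nearer to Maf were also lost under both.

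The share of runs inside a single gene was 35.9% at 25 kb, 16.9% at 100 kb and 21.4% with a minimum of 6 peaks. The intergenic difference of run peaks from other CD137 peaks changed sign, to 10.6 points at 25 kb and 4.03 points with a minimum of 6 peaks, and it was -4.51 points in the wider 50%. The up5k difference was -4.88 points at 25 kb and -0.0142 points with the 8002 widest CD137 peaks. The width difference was 93 bp with a minimum of 6 peaks and positive in all 8 alternatives. Of 56 values under alternatives, 29 stayed within the main interval or within 1.5 times the main count. The cause of the other changes was not tested beyond the limits themselves. No paired analysis was possible because each group has 1 library, which also leaves nothing to omit in turn. The unknown depth limits what an unlisted peak means.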
